A study of Danio rerio with 4 samples.

Results

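The miRNAs of non-neural-crest (non-NCC) cells of the zebrafish embryo were compared between 28 and 16 hours post-fertilization (hpf), using 2 of the 4 small RNA libraries of the study: the non-NCC library at 28 hpf and the non-NCC library at 16 hpf. The members were chosen by label, as the libraries sorted from GFP-negative cells, with earlier results of these data known. The other 2 libraries hold the GFP-positive neural crest cells (NCC) of the same stages. All 4 groups came from Tg(sox10:eGFP,mRFP) embryos, in which the promoter of sox10, a neural crest transcription factor, drives both fluorescent proteins, so non-NCC means every cell of the embryo that was negative for GFP at the time of sorting. Each stage is represented by 1 library, so the variation from one sort or clutch to the next is unknown, no test between the stages was possible, and stage cannot be told apart from library, sort or sequencing run. Each table lists 372 miRNA rows (a mature miRNA or an arm of its hairpin), 16 of them of the miR-430 family. The deposited values are counts normalized within a stage, which cannot be set side by side across stages, so each row was taken as a share of its own library.

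A miRNA is cut from a hairpin precursor, and one arm of the duplex, named 5p or 3p after its side of the hairpin, is loaded into an Argonaute protein and guides it to matching messenger RNAs. In the zebrafish the miR-430 family is transcribed in bulk at the onset of zygotic transcription and clears maternal messenger RNAs. Many other miRNAs accumulate later in single tissues: miR-1, miR-133 and miR-206 in muscle, miR-9 and miR-124 in neural tissue, miR-203, miR-205 and the miR-200 group in epidermis and other epithelia, miR-144 and miR-451 in erythroid cells, and miR-10 and miR-196 in the trunk and tail under the Hox clusters that encode them. Between 16 and 28 hpf the embryo passes from somite formation to the stage at which muscle contracts, blood circulates and neurons differentiate.

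The study's forward RT-qPCR oligos for 3 of the miRNAs it followed are printed here, under the study's names for them, because one of them was designed for miR-133a-3p, which had the largest ratio between the stages of the non-NCC rows with at least 10 reads in both libraries. Capitals mark the bases after a leading stretch whose end is common to the 3 oligos.
miR-133a-Fw: cacgcatTTGGTCCCCTTCA
miR-199-2-Fw: gcacgcatACAGTAGTCTGCAC
miR-338-3p-Fw: cacgcatCCAGCATCAGTGATT

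Whole reads could be recovered from the deposited values, because 100% of the values of each library were whole multiples of the smallest one, within 0.001 reads. The 28 hpf library held 1099312 miRNA reads and the 16 hpf library 140132389, a 127-fold difference in depth. Outside the miR-430 family the libraries held 366396 and 11572910 reads. At least 1 read was present for 237 rows at 28 hpf and 339 rows at 16 hpf. In both libraries 236 rows had reads, 103 rows had reads at 16 hpf only, 32 had none in either, and 1 row, miR-182-3p, had a single read at 28 hpf and none at 16 hpf. Of 79 rows of miRNAs that mark 11 tissues, 59 were above 0 at 28 hpf and 76 at 16 hpf, and all 11 tissues had reads in both libraries. Such markers were also present in NCC (miR-205-5p had 68 reads there at 28 hpf and 1071 at 16 hpf), and crest derivatives include pigment cells and cartilage, so these counts show which tissues' miRNAs were sampled and do not check the sort. In a mixture of tissues such as this one, fewer cells of a type and less of a miRNA per cell cannot be told apart.

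The miR-430 family was the largest component of both libraries, and its share was smaller at 28 hpf. The 16 rows together held 66.7% of the reads at 28 hpf (95% exact binomial interval 66.6 to 66.8%) and 91.7% at 16 hpf. miR-430b-3p had 470404 reads at 28 hpf, against 101252985 at 16 hpf, which is 1.69-fold less as a share of all miRNA reads. miR-430a-3p went the other way, with 256842 reads at 28 hpf and 25293368 at 16 hpf, and its share of all reads was 1.29-fold higher at 28 hpf. The number of miR-430a-3p reads per miR-430b-3p read was 0.546 at 28 hpf and 0.250 at 16 hpf, a ratio that does not depend on any scaling between the libraries. miR-430c-3p, the third main mature form, had 5238 and 1843809 reads at 28 and 16 hpf, a share 2.76-fold lower at 28 hpf. Of the passenger arms, miR-430b-5p had 360 reads at 28 hpf and 162094 at 16 hpf (3.53-fold lower share), and miR-430c-5p had 72 and 5907 (1.55-fold higher). The other 11 rows of the family had 0 reads at 28 hpf. Names of precursor genes in a RefSeq gene table of a later assembly (GRCz12tu) give 19 genes for miR-430b and 18 for miR-430a, and how reads that match several of them were counted is not given in the sources used here. Dividing the reads of every row by its number of precursor genes put the share of the family at 16.8% at 28 hpf and 49.4% at 16 hpf.

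Because the family filled such different shares of the libraries, every other row was compared as reads per 1000000 reads outside miR-430 (rpm), and then against the reads of all rows, which adds 2.01 to each of these log2 ratios (4.04-fold). At 28 hpf 1 read was worth 2.73 rpm, and at 16 hpf 0.0864 rpm. A row was compared when it had at least 10 reads in both libraries, which held for 140 of the 356 rows outside miR-430, and it was called higher or lower when the ratio passed 2-fold. Of these 140 rows, 47 (33.6%) were over 2-fold higher at 28 hpf, 36 (25.7%) were over 2-fold lower, and 57 lay between. The median log2 ratio was 0.04. As shares of all reads, 105 rows (75%) were over 2-fold higher at 28 hpf and 1 row (0.714%), miR-221-5p, was over 2-fold lower. Every row named below as higher was therefore higher under both scalings, whereas of the 36 rows called lower, 16 had a smaller share of all reads too (log2 ratios from -1.33 to -0.042) and 20 had a larger one (0.0054 to 1.01). Intervals given below are 95% Clopper-Pearson intervals, and they cover counting error only, since reads lacked molecular identifiers and copies of one molecule could not be told from separate molecules. The whole interval lay past 2-fold for 35 of the 47 higher rows and 25 of the 36 lower rows. Of the 16 rows with a smaller share of all reads, miR-221-5p, miR-146a, miR-196b, miR-222a-5p and miR-19a-3p kept their whole interval below equality when 2.01 was added. For the rest of the 16 the interval then included equality. The same held for several of the 20 rows with a larger share of all reads, among them miR-21. The closest rows inside the threshold were let-7i (log2 ratio 1.01) and miR-363-3p (-1.01), and the closest outside it were miR-27c-3p (0.98) and miR-124-3p (-0.97).

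**Figure D1:**
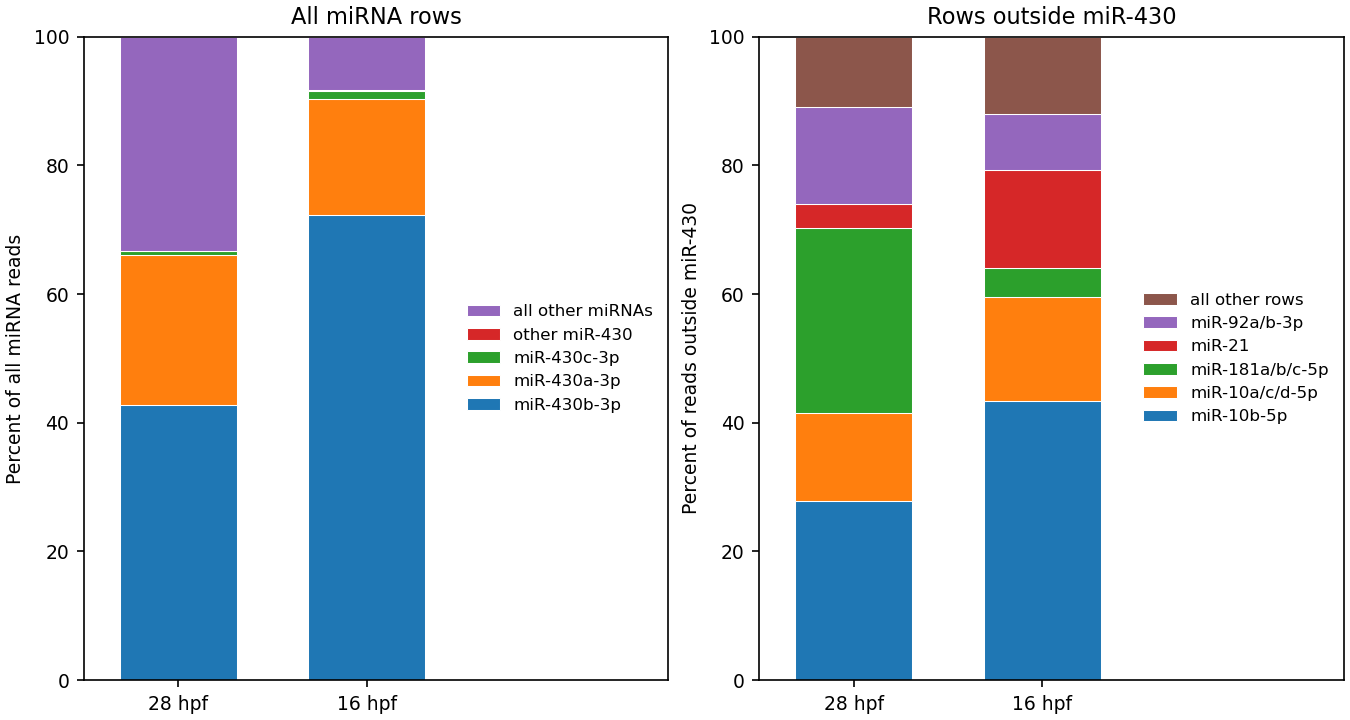
Composition of the non-NCC libraries at 28 hpf (left bar) and 16 hpf (right bar). The left panel stacks the percent of all miRNA reads, where the miR-430 rows fill 66.7% at 28 hpf and 91.7% at 16 hpf, and the right panel stacks the percent of reads outside miR-430, where the miR-181a/b/c-5p block is visibly taller, and the miR-21 block smaller, at 28 hpf.

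The minimum of 10 reads at 28 hpf bears on these counts, since a row of equal share needed about 316 reads at 16 hpf to reach it. Of the compared rows, 26 had fewer reads than that at 16 hpf and could enter only by being higher, and 23 of them were over 2-fold higher. Besides rows marked where they are named, these include miR-96-5p, miR-141-3p and miR-199-3-3p. Of the 133 rows with at least that many reads at 16 hpf, 24 were over 2-fold higher at 28 hpf and 53 were over 2-fold lower, a count that includes rows with fewer than 10 reads at 28 hpf. Counts of higher and lower rows in each list below are to be set against 33.6% and 25.7% over all 140 compared rows.

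Of the 5 most abundant rows outside miR-430, 3 were the same at both stages (miR-10b-5p, miR-92a-3p and miR-10c-5p). Reads were concentrated in few rows, with 90% of the reads outside miR-430 in 10 rows at 28 hpf and 11 rows at 16 hpf. miR-10b-5p, encoded in the Hox clusters, led at both stages, with 279138 rpm at 28 hpf and 433164 rpm at 16 hpf (log2 ratio -0.63). miR-181a-5p, known in zebrafish from the retina and optic tectum, was second at 28 hpf, with 250390 rpm against 36858 rpm at 16 hpf (log2 ratio 2.76, interval 2.75 to 2.77). Thus there were 0.897 reads of miR-181a-5p per read of miR-10b-5p at 28 hpf and 0.0851 at 16 hpf. miR-21, a widely expressed miRNA needed for heart valve formation in the zebrafish, was the second row at 16 hpf and stood at 37798 rpm at 28 hpf against 151845 rpm at 16 hpf (log2 ratio -2.01, interval -2.03 to -1.98). As a share of all reads miR-21 was level between the stages (log2 ratio 0.0066). miR-92a-3p, the most abundant member of the miR-17-92 cluster, had 108473 rpm at 28 hpf and 79519 rpm at 16 hpf (log2 ratio 0.45). miR-92b-3p, its relative from a separate gene, had 41993 and 7831 rpm at 28 and 16 hpf (log2 ratio 2.42). Of the other abundant rows, miR-10c-5p was level, with 74144 rpm at 28 hpf and 74336 rpm at 16 hpf, and miR-10a-5p had 37757 rpm at 28 hpf and 76232 rpm at 16 hpf (log2 ratio -1.01).

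**Figure D2:**
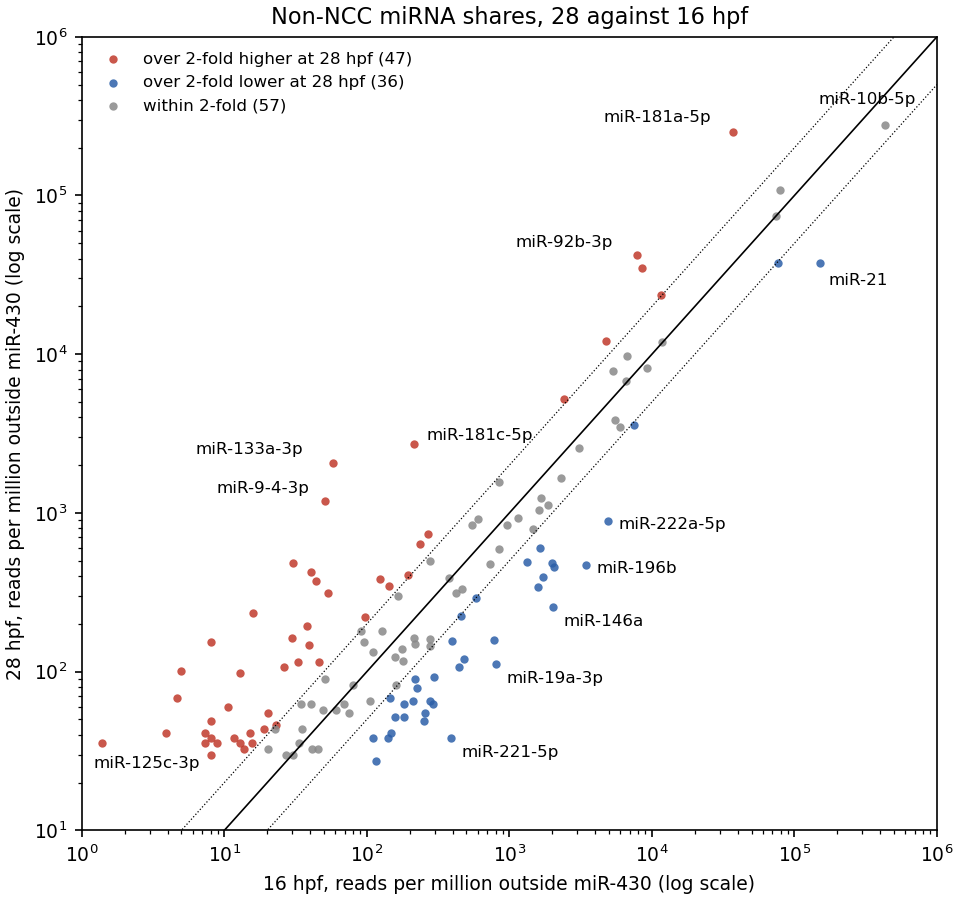
Rpm (outside miR-430) of the 140 compared rows, at 28 hpf on the vertical axis and 16 hpf on the horizontal axis, both on log scales. The solid line marks equal shares and the dotted lines 2-fold. The 47 rows above the upper dotted line are red, the 36 below the lower one blue, and the sparse rows at the lower left are nearly all red, the corner in which only higher rows could reach 10 reads at 28 hpf.

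The muscle miRNAs differed among themselves. miR-133a-3p, which acts in skeletal and heart muscle, had 758 reads at 28 hpf and 674 reads at 16 hpf in a library with far more reads, that is 2069 rpm against 58.2 rpm. Its log2 ratio of 5.15 (interval 4.999 to 5.30, 35.5-fold higher) was the largest of the 140 rows. Its close relatives did not share it. miR-133b-3p had 3 reads at 28 hpf and 618 at 16 hpf, and miR-133c-3p had 4 and 445. The miRNAs of this family are near-identical in sequence, and how the study divided reads among them is not given in the sources used here, so the 3 rows were also added: 765 reads at 28 hpf against 1737 at 16 hpf, a log2 ratio of 3.80 (interval 3.67 to 3.92). miR-206-3p, specific to skeletal muscle, was lower, with 49.1 rpm at 28 hpf and 252 rpm at 16 hpf (18 and 2914 reads, log2 ratio -2.36). miR-1, expressed in skeletal and heart muscle, had 0 reads at 28 hpf and 20 at 16 hpf, too few for the depth at 28 hpf to show a lower share. Of the 10 rows of the list 2 could be compared, 1 higher and 1 lower.

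Of the 45 rows listed for neurons and neural progenitors, 12 could be compared, of which 6 were over 2-fold higher at 28 hpf and 2 over 2-fold lower, with a median log2 ratio of 0.46. miR-9-5p, a regulator of neural progenitors, was the most abundant, with 12151 rpm at 28 hpf and 4754 rpm at 16 hpf (log2 ratio 1.35). The opposite arm of the miR-9 hairpins had a larger ratio: miR-9-4-3p had 436 reads at 28 hpf and 584 at 16 hpf (1190 rpm and 50.5 rpm, log2 ratio 4.56), and miR-9-7-3p had 36 and 148 (2.94). Of these, miR-9-7-3p had too few reads at 16 hpf to be compared unless higher. The third row of this arm, miR-9-3p, had 5 reads at 28 hpf and 616 at 16 hpf, and the 3 rows together had 477 and 1348 (log2 ratio 3.48). miR-138-5p, expressed in brain and, in zebrafish, in the heart, had 371 rpm at 28 hpf against 44.0 rpm at 16 hpf (log2 ratio 3.08), and miR-153a-3p and miR-153c-3p, neuronal miRNAs, had log2 ratios of 1.30 and 1.29. Their relative miR-153b-3p was not higher, with 45 reads at 28 hpf and 1833 at 16 hpf (log2 ratio -0.37). miR-124-3p, the most specific neuronal marker of the list, was not higher outside miR-430. It had 30 reads at 28 hpf and 1859 at 16 hpf (log2 ratio -0.97), and its 5p arm stood at -0.69. As shares of all reads, miR-124-3p and miR-124-5p were instead over 2-fold higher at 28 hpf (log2 ratios 1.04 and 1.33). miR-219-5p, known in mouse from oligodendrocytes, was lower, at 491 rpm at 28 hpf and 1324 rpm at 16 hpf (log2 ratio -1.43), as was miR-135b-5p (-2.09). miR-218a, known from motor neurons, had 330 rpm at 28 hpf and 463 rpm at 16 hpf (log2 ratio -0.49).

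Of the lists outside miR-430, the miR-181 family had the largest increase in summed share. Its 13 rows together held 29.2% of the reads outside miR-430 at 28 hpf and 4.84% at 16 hpf, a 6.03-fold higher share. Of 7 compared rows 5 were higher and none lower (median log2 ratio 2.04). miR-181b-5p had 35101 rpm at 28 hpf and 8538 rpm at 16 hpf (log2 ratio 2.04), and miR-181c-5p had 2721 and 214 rpm (3.67). Of the compared rows of the arm opposite miR-181a-5p, miR-181a-3p was within 2-fold, with 1245 rpm at 28 hpf and 1671 rpm at 16 hpf (log2 ratio -0.43). So was miR-181a-2-3p (0.87), whereas miR-181a-5-3p was higher (269 and 3105 reads, 1.45). The arm opposite miR-181c-5p, miR-181c-3p, was higher too (25 and 54 reads, 3.87). Of these, miR-181c-3p had too few reads at 16 hpf to be compared unless higher. miR-181a-5p and miR-10b-5p together made up 52.95% of the reads outside miR-430 at 28 hpf and 47.0% at 16 hpf, so their sum differed far less between the stages than either row.

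The rows of miR-99, miR-100 and miR-125, which are transcribed together with let-7 in several clusters, were mostly higher. miR-125 is the vertebrate relative of lin-4, the miRNA that times larval development in the worm. Of 11 rows, all with reads in both libraries, 10 were compared, 9 were over 2-fold higher at 28 hpf and none lower, with a median log2 ratio of 2.99. Of the 10 compared rows 6 had too few reads at 16 hpf to be compared unless they were higher. The sum over all 11 rows, to which no minimum applies, held 0.294% of the reads outside miR-430 at 28 hpf and 0.205% at 16 hpf. That is a 1.43-fold higher share. miR-125a had 176 reads at 28 hpf and 350 at 16 hpf (log2 ratio 3.99), miR-125c-5p had 86 and 185 (3.88), and miR-125b-5p had 114 and 616 (2.55). The 3 rows of the miR-125 5p arm together had 376 reads at 28 hpf and 1151 at 16 hpf (log2 ratio 3.37, interval 3.20 to 3.54). miR-99 was also higher, with 423 rpm at 28 hpf and 40.4 rpm at 16 hpf (log2 ratio 3.39). The 3p arms miR-125b-1-3p and miR-125c-3p had 56 and 13 reads at 28 hpf against 94 and 16 reads at 16 hpf (log2 ratios 4.23 and 4.68). The row that missed the minimum, miR-125b-3-3p, named after its values were seen, had 23 reads at 28 hpf and 8 at 16 hpf, a log2 ratio of 6.50 (interval 5.29 to 7.88). The exception was the most abundant row of the list, miR-100-5p, with 1119 rpm at 28 hpf and 1874 rpm at 16 hpf (log2 ratio -0.74).

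The let-7 family, which accumulates as tissues differentiate, was sparse at both stages and together took 0.0459% of the reads outside miR-430 at 28 hpf and 0.0640% at 16 hpf. Of 12 rows 4 were compared and 3 were over 2-fold higher: let-7c-5p with 20 reads at 28 hpf and 236 at 16 hpf (log2 ratio 1.42), let-7f with 11 and 93 (1.90) and let-7i with 17 and 267. These 3 rows had too few reads at 16 hpf to be compared unless they were higher, so their count and the list median (1.21) are set by the minimum of reads. let-7a, the most abundant row at 28 hpf, had 311 rpm at 28 hpf and 421 rpm at 16 hpf (log2 ratio -0.43). let-7g had 0 reads at 28 hpf and 1692 at 16 hpf. Against a limit of 3 reads at 28 hpf its share was at least 17.9-fold lower, or at least 4.42-fold lower as a share of all reads. The upper end of its counting interval was -3.86 on the log2 scale outside miR-430. The sum over all 12 rows, to which no minimum applies, had a log2 ratio of -0.48 outside miR-430. Taken over all reads, which adds 2.01, the summed share was instead higher at 28 hpf.

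Outside miR-430, the 2 groups of miRNAs encoded in the Hox clusters, miR-10 and miR-196, both had smaller summed shares at 28 hpf, to unequal degrees. The 4 miR-10 5p rows together held 41.5% of the reads outside miR-430 at 28 hpf and 59.5% at 16 hpf. Taken over all reads, the share of these 4 rows was instead higher at 28 hpf (log2 ratio 1.49). Among them miR-10d-5p was higher, with 23649 rpm at 28 hpf and 11528 rpm at 16 hpf (log2 ratio 1.04), and the number of miR-10c-5p reads per miR-10a-5p read was 1.96 at 28 hpf and 0.975 at 16 hpf. The 4 miR-196 rows, repressors of Hox messenger RNAs, had 362 reads at 28 hpf and 67478 at 16 hpf (log2 ratio -2.56, interval -2.71 to -2.41). miR-196b had 469 rpm at 28 hpf and 3434 rpm at 16 hpf (log2 ratio -2.87), miR-196c had 62.8 and 291 rpm (-2.21), and miR-196a-5p had 453 and 2040 rpm (-2.17). Taken over all reads, the log2 ratios of these 3 rows were -0.86, -0.20 and -0.16. On that scale miR-196b kept its whole counting interval below equality. The intervals of miR-196c and miR-196a-5p included equality, so these rows were level within counting error. Of 14 rows in the list, 9 were compared, 1 was higher and 4 were lower, with a median of -0.63. Another passenger row of this list, miR-10b-2-3p, had 0 reads at 28 hpf and 521 at 16 hpf. Against a limit of 3 reads its share was at least 5.50-fold lower, or at least 1.36-fold lower of all reads. The upper end of its counting interval was -2.16 on the log2 scale outside miR-430.

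The clusters related to miR-17-92, which in mammals promote proliferation, differed among their members. The 29 rows together took 16.0% of the reads outside miR-430 at 28 hpf and 10.2% at 16 hpf. Nevertheless, of 20 compared rows 10 were over 2-fold lower and 5 higher, and the median log2 ratio was -0.97, because miR-92a-3p and miR-92b-3p carried most of the reads. The lower rows were miR-19a-3p (112 rpm at 28 hpf, 802 rpm at 16 hpf, log2 ratio -2.84), miR-20a-5p (158 and 782 rpm, -2.31), miR-93 (54.6 and 257 rpm, -2.24), miR-19b-3p (393 and 1715 rpm, -2.13) and miR-17a-5p (480 and 1995 rpm, -2.05), followed by miR-19d-3p, miR-18a, miR-18c, miR-20b-5p and miR-363-3p between -2.08 and -1.01. The higher rows were miR-92b-3p, miR-92a-5p (log2 ratio 1.05) and 3 passenger arms with 13 to 16 reads at 28 hpf, miR-19a-5p (2.29), miR-19c-5p (1.21) and miR-25-5p (1.18), which had too few reads at 16 hpf to be compared unless higher. miR-25-3p was level at 6744 rpm at 28 hpf and 6542 rpm at 16 hpf.

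Outside miR-430, the medians of other lists of widely expressed miRNAs were mostly negative, that of miR-103 and miR-107 (0.14) being the exception. Taken over all reads, only the miR-221 and miR-222 median was negative among them (-0.33). miR-221-5p was the lowest of the 140 rows, with 14 reads at 28 hpf and 4482 at 16 hpf (38.2 rpm and 387 rpm, log2 ratio -3.34, interval -4.21 to -2.59). It was followed among its relatives by miR-222a-5p, at 890 rpm at 28 hpf and 4932 rpm at 16 hpf (-2.47), and miR-221-3p, at 341 and 1577 rpm (-2.21), while miR-222a-3p had 7817 and 5354 rpm (0.55), so that 3 of 4 compared rows of this pair, known in zebrafish from vessel sprouting, were lower and none higher (median -2.34). Of 7 compared rows of miR-15 and miR-16, which in mammals restrain cell cycle genes, 4 were lower and 2 higher (median -1.27): miR-16c-5p stood at -2.01, miR-15b-5p at -1.46 and miR-16b at -1.35, whereas miR-16c-3p stood at 1.63. Of 8 compared rows of miR-130, miR-301 and miR-454, 3 were lower and 1 was higher (median -0.66), the most abundant being miR-454b, with 3578 rpm at 28 hpf and 7471 rpm at 16 hpf (log2 ratio -1.06). miR-301a, miR-301c-3p and miR-130c-3p had log2 ratios of -0.78, -0.54 and -0.38. All 8 miR-30 rows were compared, 2 were higher and 1 lower (median -0.40), with miR-30e-5p at -0.79, miR-30e-3p at -0.53, miR-30c-5p at -0.87 and miR-30d at -0.26. The higher rows were miR-30a-5p (2.45) and miR-30a-3p (2.25), the latter with too few reads at 16 hpf to be compared unless higher. The lower row was miR-30b (-1.09), and miR-30c-3p stood at 0.83. The 15 rows of miR-23, miR-27 and miR-24 left 2 to compare, miR-27c-3p and miR-27a-5p (log2 ratio -1.89). miR-23a-3p had 4 reads at 28 hpf and 441 at 16 hpf, miR-23b had 3 and 336, and miR-24 had 0 and 423. Against a limit of 3 reads miR-24 was at least 4.46-fold lower, or at least 1.11-fold lower of all reads. The upper end of its counting interval was -1.85 on the log2 scale outside miR-430. For all reads, where 2.01 is added, that interval included equality. The 2 compared rows of miR-26 lay within 2-fold (miR-26a-5p 0.02, miR-26b -0.61), as did those of miR-103 and miR-107 (miR-103 -0.35, miR-107a-3p 0.64) and the 1 compared row of miR-101 (miR-101a -0.15). miR-101b had 3 reads at 28 hpf and 841 at 16 hpf.

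Epithelial miRNAs were mixed. In the miR-200 group, which in mammals keeps epithelial cells from becoming mesenchymal, 3 rows were lower: miR-429a had 106 rpm at 28 hpf and 445 rpm at 16 hpf (39 and 5148 reads, log2 ratio -2.06), miR-200b-3p had 19 and 1815 reads (-1.60) and miR-200a-3p had 29 and 2609 reads (-1.51). The other compared rows of this group lay above equality within 2-fold, miR-141-3p at 0.95 (16 and 261 reads) and miR-200a-5p at 0.67 (56 and 1109 reads). The skin miRNAs miR-203 and miR-205 were not lower past 2-fold. miR-205-5p had 3840 rpm at 28 hpf and 5524 rpm at 16 hpf (log2 ratio -0.52), miR-203a-3p stood at -0.08 and miR-203b-3p, with 182 and 3183 reads, at 0.85. The 1 row called higher was the opposite arm, miR-203b-5p, with 22 and 122 reads (2.51), too few at 16 hpf to be compared unless higher. Of 16 rows 9 were compared, 1 was higher and 3 were lower, with a median of -0.08, against 33.6% higher and 25.7% lower over all 140 compared rows. The miR-183, miR-96 and miR-182 cluster of sensory cells lay within 2-fold, with log2 ratios of -0.46, 0.16 and 0.56 for the 5p arms.

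Among blood and vessel miRNAs, miR-451, the erythroid miRNA that is matured by Argonaute without Dicer, had 39 reads at 28 hpf and 304 at 16 hpf (106 rpm and 26.3 rpm, log2 ratio 2.02). miR-144-5p, from the same transcript, had 82 and 5280 reads (log2 ratio -1.03). Of the 2 rows, miR-451 had too few reads at 16 hpf to be compared unless higher. miR-146a, a regulator of innate immune signalling in mammals, was lower, at 254 rpm at 28 hpf and 2037 rpm at 16 hpf (log2 ratio -3.005, interval -3.31 to -2.71), and miR-462 stood at -0.61. Its relative miR-146b did not share the lower value of miR-146a. It had 16 reads at 28 hpf and 405 at 16 hpf, a log2 ratio of 0.32 whose interval (-0.50 to 1.04) included equality. Of 13 rows in the blood list 5 were compared, 1 was higher and 2 were lower (median -0.61). Over all 140 compared rows 33.6% were higher and 25.7% lower. In the vascular list, 2 of 7 rows were compared. miR-143, a smooth muscle miRNA, had 15 reads at 28 hpf and 45 at 16 hpf (log2 ratio 3.40, interval 2.45 to 4.27), and miR-126a-3p, which maintains vessel integrity in the zebrafish, had 24 and 2424 (-1.68). Of these, miR-143 had too few reads at 16 hpf to be compared unless higher. miR-126b-3p had 2 reads at 28 hpf and 636 at 16 hpf, and miR-126a-5p had 0 and 215. Against a limit of 3 reads miR-126a-5p was at least 2.27-fold lower outside miR-430, whereas for all reads the depth at 28 hpf could not show a lower share. The upper end of its counting interval was -0.87 on the log2 scale outside miR-430. miR-145-5p, the smooth muscle partner of miR-143, had 4 and 44 reads, a log2 ratio of 1.52 whose interval (-0.42 to 2.98) included equality.

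Of the 8 rows listed for liver, gut and pancreas 4 were compared, 3 were higher and none was lower (median 1.34). miR-216b, a pancreatic miRNA, had 71 reads at 28 hpf and 438 at 16 hpf (log2 ratio 2.36), and miR-375, which is needed for pancreatic islets in the zebrafish, had 639 rpm at 28 hpf and 237 rpm at 16 hpf (1.43). The intestinal miR-194a stood at 1.25, with 12 reads at 28 hpf and 159 at 16 hpf, too few at 16 hpf to be compared unless higher. miR-192 stood at -0.31. miR-122, the hepatocyte miRNA, had 0 reads at 28 hpf and 12 at 16 hpf, again too few for the depth at 28 hpf to show a lower share. For cartilage and mesenchyme, none of 4 compared rows passed 2-fold (median 0.32): miR-199-3p had 912 rpm at 28 hpf and 604 rpm at 16 hpf (log2 ratio 0.59), miR-199-5p stood at -0.18, miR-199-3-3p at 0.70, and miR-140-3p, known from cartilage, at 0.04. In the eye list 2 of 5 rows were compared. miR-204-5p, of the retinal pigment epithelium and lens, had 5199 rpm at 28 hpf and 2419 rpm at 16 hpf (log2 ratio 1.10), and miR-184 had 8232 and 9265 rpm (-0.17). miR-338-3p had 2 reads at 28 hpf and 13 at 16 hpf, too few for a ratio. Of the 13 compared rows in no list, miR-2188-3p had the largest ratio, with 37 reads at 28 hpf and 57 at 16 hpf (4.36), too few at 16 hpf to be compared unless higher. Of rows in the neural list that had no reads at 28 hpf, miR-7b had the most at 16 hpf (244 reads). Against a limit of 3 reads it was at least 2.58-fold lower outside miR-430, whereas for all reads the depth at 28 hpf could not show a lower share. The upper end of its counting interval was -1.06 on the log2 scale outside miR-430.

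**Figure D3:**
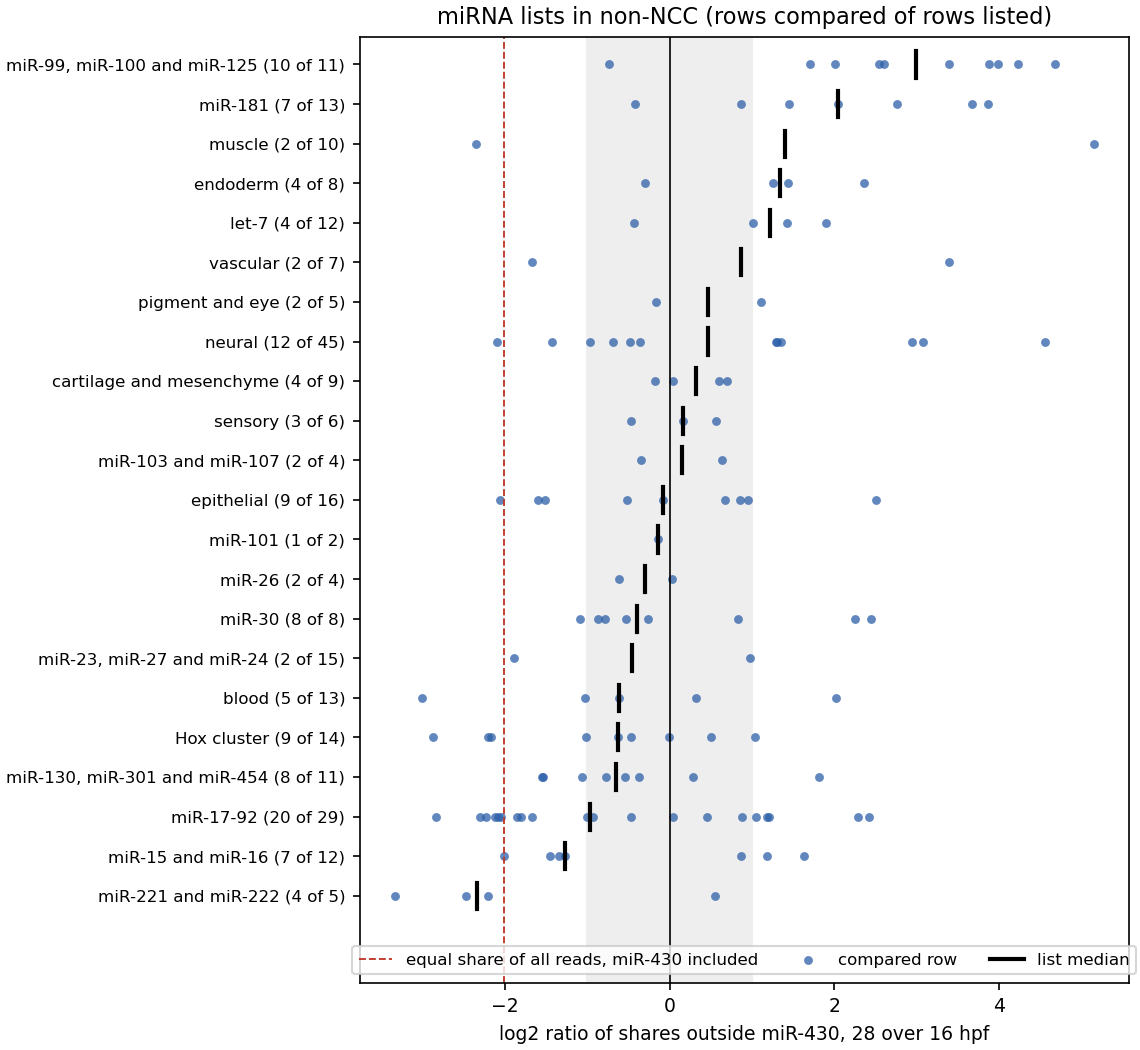
Log2 ratios of shares outside miR-430 (28 over 16 hpf, non-NCC) of the compared rows in each of 22 miRNA lists, ordered by list median (black bars). Grey marks ratios within 2-fold and the dashed red line marks where rows with an equal share of all reads would lie. Only the miR-221 and miR-222 list has its median (-2.34) to the left of that line, and the miR-99, miR-100 and miR-125 list has the highest median (2.99). Of the 10 compared rows of the latter list, 6 could be compared only if higher.

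Rows cut from one hairpin need no scaling between libraries, because the share of reads on each arm is set within a library. For 17 hairpins both arms had at least 316 reads at 16 hpf. The arm with fewer reads at 16 hpf took a larger share at 28 hpf in 12 of them and a smaller share in 5, and the intervals of the 2 stages were apart in 16. For 3 hairpins the minor arm of 16 hpf held most of the reads at 28 hpf. miR-16c-3p had 76.1% of the reads of its hairpin at 28 hpf (interval 69.3 to 82.1%) and 20.4% at 16 hpf. miR-200a-5p had 65.9% (54.8 to 75.8%) at 28 hpf and 29.8% at 16 hpf, and miR-199-3p had 51.9% at 28 hpf, where the interval of 48.0 to 55.9% spans an even split, and 38.7% at 16 hpf. miR-15b-3p had 26.9% at 28 hpf and 5.59% at 16 hpf. In the other direction, miR-222a-5p had 10.2% of the reads of its hairpin at 28 hpf (9.19 to 11.3%) and 47.9% at 16 hpf, and miR-181a-3p had 0.495% and 4.34%. Several precursors share an arm, so for 6 hairpins the rows of the minor arm with a further number in their name were added to it. miR-9 then turned round, with its 3p rows at 9.68% at 28 hpf and 2.39% at 16 hpf against 0.112% and 1.11% for the row miR-9-3p alone. The sum for miR-181a stayed lower, at 1.40% at 28 hpf and 7.05% at 16 hpf. With these sums the minor arm had the larger share at 28 hpf in 13 hairpins and the smaller share in 4.

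**Figure D4:**
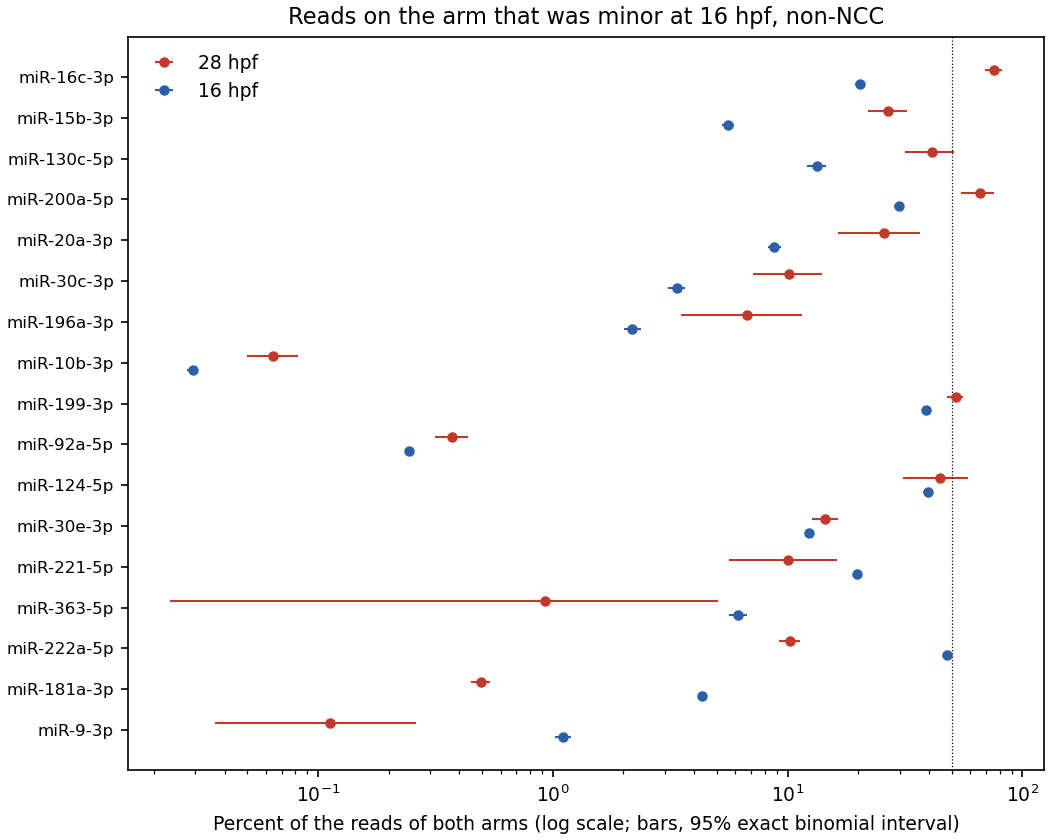
Percent of the reads of a hairpin that fell on the arm with fewer reads at 16 hpf, for 17 hairpins in non-NCC at 28 hpf (red, upper point of each pair) and 16 hpf (blue, lower point), on a log scale with 95% exact binomial intervals. The dotted line marks an even split, which miR-16c-3p (76.1%) and miR-200a-5p (65.9%) passed at 28 hpf with their whole interval.

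Neighbouring precursors, which can come from one transcript, were compared next. Within 10 kb in the GRCz12tu gene table, used only for names and neighbours, there were 24 groups of precursors with compared rows. Mature rows with several precursor genes cannot be assigned to one of them, and counting groups made of the same rows once left 21 groups. The ratios of a group lay within 2-fold of each other in 8 of these and on the same side of equality in 10. Examples of groups with close ratios were miR-200b, miR-200a and miR-429a (log2 ratios -1.60, -1.51 and -2.06), and miR-363-3p, miR-19c-3p, miR-20b-5p and miR-18c (-1.01, -0.93, -1.67 and -1.81). In contrast, miR-92a-3p, at 0.45, lies beside miR-17a-5p, miR-18a, miR-19a-3p, miR-20a-5p and miR-19b-3p, at -1.85 or lower, and a second miR-92a gene lies beside a second miR-17a gene. Similarly, miR-221-3p (-2.21) lies beside miR-222a-3p (0.55), miR-144-5p (-1.03) beside miR-451 (2.02), and miR-93 (-2.24) beside miR-25-3p (0.04). miR-100-5p and let-7a (-0.74 and -0.43) lie beside miR-125b-5p (2.55), whereas miR-99, let-7c-5p and miR-125c-5p of the related cluster were all higher (3.39, 1.42 and 3.88). However, let-7c-5p, miR-125c-5p and miR-451 had too few reads at 16 hpf to be compared unless higher, so their direction was set by the minimum of reads. The 10 groups on the same side of equality include groups with let-7c-5p and miR-125c-5p.

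The same stage ratio could be set beside that of the NCC libraries for 17 rows outside miR-430 with at least 10 reads in all 4 libraries. The NCC libraries were much shallower, with 1768 reads outside miR-430 at 28 hpf and 187650 at 16 hpf, and the difference between the populations was not tested. Of these 17 rows 6 were over 2-fold higher at 28 hpf in non-NCC, and 4 of the 6 were so in NCC too: miR-181a-5p (log2 ratio 2.76 in non-NCC, 2.93 in NCC), miR-181b-5p (2.04 and 2.24), miR-9-5p (1.35 and 2.38) and miR-10d-5p (1.04 and 2.65). The other 2, miR-92b-3p and miR-204-5p, had log2 ratios of 2.42 and 1.10 in non-NCC and -0.37 and -0.38 in NCC, with NCC intervals that included equality. Rows outside these 6 passed 2-fold upward in NCC as well: miR-184 at 1.37, then miR-100-5p at 2.03, and also miR-205-5p at 2.75. Higher rows were thus common in NCC, and the 4 shared rows alone do not show that the populations changed alike. The minimum of 10 reads also bears on NCC. There miR-9-5p, with 21 reads at 28 hpf and 427 at 16 hpf, had too few at 16 hpf to be compared unless higher. The same held for miR-184 and for miR-100-5p. miR-21 was lower in both populations, at -2.01 in non-NCC and -3.53 in NCC. miR-430a-3p, taken as a share of all reads, had a log2 ratio of 0.37 in non-NCC and -1.42 in NCC. miR-133a-3p could not be compared in this way, because it had 2 reads in NCC at 28 hpf and 64 at 16 hpf.

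**Figure D5:**
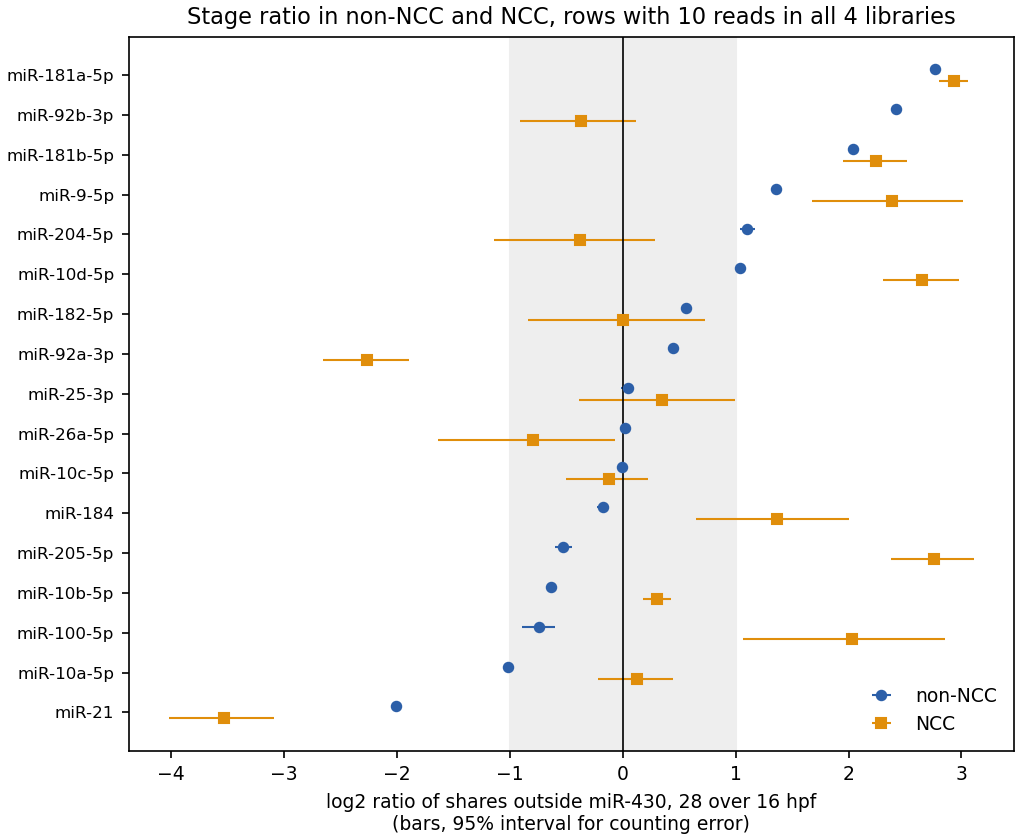
Log2 ratio of shares outside miR-430, 28 over 16 hpf, for 17 rows in non-NCC (blue circles) and NCC (orange squares), with 95% intervals for counting error that are hidden by the point in most non-NCC rows. Grey marks ratios within 2-fold. miR-181a-5p is highest (2.76 in non-NCC, 2.93 in NCC) and miR-21 lowest (-2.01 and -3.53) in both populations. In NCC, miR-9-5p, miR-100-5p and miR-184 could be compared only if higher.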

How the data were processed

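Small RNA of FACS-sorted cells was sequenced by the study. Per the labels, the genome build was GRCz11 and the tools were Bowtie, HTSeq and DESeq2; their versions and the treatment of reads with several matches are not given in the sources used here. The authors deposited normalized counts, a signal that is never negative, scaled for the 2 libraries of a stage together and apart from the other stage. Reads were recovered by dividing each value by the smallest nonzero value of its library.

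Shares of the reads outside miR-430 were compared between the non-NCC libraries, with 95% Clopper-Pearson intervals for log2 ratios. Rows needed 10 reads in both libraries, the threshold was 2-fold, and a row at 0 was set against 3 reads. For such rows the upper end of the counting interval lies closer to equality than the bound from 3 reads. With 1 library a stage no test was run. The rule for named miRNAs took the 5 highest rows outside miR-430 and the 3 highest of miR-430 in each library, the 12 highest and 12 lowest ratios, up to 5 rows at 0 in either library, the 4 most abundant rows of each of 23 lists, and miR-133a-3p, miR-199-3p, miR-338-3p and miR-145-5p; other rows are named from the same lists or as arms, relatives or neighbours of named rows, after their values were seen. The members and lists were chosen with earlier results of these data known. Alternatives covered scaling, including edgeR 4.0.16 TMM factors in R 4.3.3, read minimums, the threshold, added reads, identical rows and precursor numbers. Calculations used Python 3.11.15 (scipy 1.17.1, pandas 2.3.3, numpy 2.4.6) and plots matplotlib 3.10.9, and the code was tested on simulated reads. The study's RT-qPCR, target prediction and reporter experiments were not analysed here.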

Additional observations from a re-analysis of the deposited data

Results flagged for a closer look

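For 9 of the 17 rows outside miR-430 that were compared in both populations, the share moved one way between the stages in non-NCC and the opposite way in NCC. With 1 library a population and stage, the difference between the populations was not tested in any of them. On the log2 scale (28 over 16 hpf), miR-205-5p stood at -0.52 in non-NCC and 2.75 in NCC, miR-100-5p at -0.74 and 2.03, and miR-184 at -0.17 and 1.37. In NCC, miR-100-5p (12 reads at 28 hpf, 312 at 16 hpf) and miR-184 (20 and 824) had too few reads at 16 hpf to be compared unless higher. Their direction in NCC was therefore set by the minimum of reads. miR-10b-5p stood at -0.63 in non-NCC and 0.30 in NCC, and miR-10a-5p at -1.01 and 0.12. miR-92a-3p stood at 0.45 in non-NCC and -2.26 in NCC, miR-92b-3p at 2.42 and -0.37, miR-204-5p at 1.10 and -0.38, and miR-26a-5p at 0.022 and -0.79. The counting interval included equality for miR-10a-5p, miR-92b-3p and miR-204-5p in NCC and for miR-26a-5p in non-NCC. As shares of all reads the ratios are higher by 2.01 in non-NCC and by 1.76 in NCC, which widens or narrows each gap by 0.25. On that scale 1 of these 9 rows, miR-92a-3p, still had opposite directions (2.46 in non-NCC, -0.50 in NCC). On the same scale miR-21 was level in non-NCC (0.0066, with a counting interval that included equality) and lower in NCC (-1.77).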

How the results depend on the processing

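The count of rows over 2-fold higher and lower at 28 hpf was 47 and 36. It was 105 and 1 as shares of all reads, 73 and 58 of 231 rows with at least 1 read in both libraries, 24 and 16 of 76 rows with at least 50, 26 and 18 at 4-fold, and 105 and 86 of 324 rows with 0.5 reads added. It stayed within 1.5 times of the counts with median of ratios (49 and 33), TMM (39 and 42), sums without the 5 highest other rows (43 and 39), identical rows counted once (47 and 36) and intervals wholly past 2-fold (35 and 25), and in 2 alternatives chosen after seeing the data, a minimum on the mean share (37 and 43 of 137 rows) and reads divided by precursor genes (54 and 31). As shares of all reads, list medians were neural 2.47, epithelial 1.94, Hox cluster 1.38, blood 1.40, endoderm 3.36, cartilage and mesenchyme 2.33, let-7 3.23, miR-99, miR-100 and miR-125 5.005, miR-17-92 1.04, miR-15 and miR-16 0.74, miR-130, miR-301 and miR-454 1.35, miR-221 and miR-222 -0.33, miR-181 4.05 and miR-30 1.62. The sign of the median thus turned from negative to positive for the epithelial, Hox cluster, blood and miR-17-92 lists. It also turned for the lists of miR-15 and miR-16, of miR-130, miR-301 and miR-454, and of miR-30. With median of ratios the Hox cluster median was -0.59 and that of miR-181 2.09. With TMM the medians of miR-221 and miR-222, miR-181 and miR-30 were -2.62, 1.76 and -0.68, and without the 5 highest other rows those of miR-181 and miR-30 were 1.88 and -0.55. Of the 36 lower rows, 20 had log2 ratios above equality as shares of all reads, because that scaling adds a constant to every log2 ratio. Among them were miR-10a-5p (0.999), miR-126a-3p (0.34), miR-144-5p (0.99), miR-15b-5p (0.55), miR-16b (0.66), miR-16c-5p (0.0054), miR-200a-3p (0.50), miR-21 (0.0066), miR-219-5p (0.58), miR-27a-5p (0.13), miR-454b (0.95), miR-200b-3p (0.42), miR-18a (0.16), miR-18c (0.21), miR-20b-5p (0.34) and miR-363-3p (1.01). With 2.01 added, the counting intervals of miR-126a-3p, miR-16c-5p, miR-200a-3p, miR-21, miR-27a-5p, miR-200b-3p, miR-18a, miR-18c and miR-20b-5p included equality, so these rows were level within counting error. The miR-430 share at 16 hpf was 91.6% over the 3p rows alone. No paired analysis was possible because each population and stage has 1 library, and for the same reason no library could be left out. Depth limits the sparse rows: a row under 3 reads at 28 hpf lies under 8.19 rpm, and 92 rows outside miR-430 with reads at 16 hpf had none at 28 hpf.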
